A study of Homo sapiens with 8 samples.

Results

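Agrin and the chains of type XXVII and type VII collagen, encoded by AGRN, COL27A1 and COL7A1, were followed through 4 lists of QKI7 RNA immunoprecipitation peaks. Every row that carried 1 of the 3 gene names was taken, which gave 45 of the 42083 rows and 3 of the 6520 genes named in any list. The genes were chosen by name with their joined blocks, covered bases and folds in these lists already known, so these values and the p-values are a description, with no test. All 3 genes were in all 4 lists, as were 63.7% of the genes, while 1.52% of genes were in sgMETTL1 lists alone (both of them) and 4.63% in sgNS lists alone (both of them). A Flag antibody was used to pull down RNA bound to tagged QKI7 in UV-treated cells, and the question was whether depletion of METTL1, which with WDR4 places 7-methylguanosine on RNA, alters the transcripts held by QKI7. The 8 samples formed 4 groups of 2: Flag IP and input RNA of HepG2 cells with a guide against METTL1 (sgMETTL1), and Flag IP and input RNA of HepG2 cells with a control guide (sgNS). HepG2 is a human liver cancer line. All groups carried Cas9 and a lentiviral 3 x Flag-QKI7 transgene, so the protein studied was an overexpressed, tagged form, and GFP-positive cells were used throughout. The labels do not say whether cells were 1 clone or a pool, nor whether replicates were separate cultures. Every list came from 1 IP sample with its input, which makes 2 lists per guide, and the folds and p-values in them are the authors' own.

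Agrin is a large heparan sulfate proteoglycan of basement membranes, the thin matrix sheets beneath epithelia, and its neuronal form clusters acetylcholine receptors at the neuromuscular junction through LRP4 and MuSK. Type VII collagen forms the anchoring fibrils that fasten the basement membrane of the skin to the dermis, and its loss causes dystrophic epidermolysis bullosa. Type XXVII collagen is a fibrillar collagen known mainly from cartilage. The collagen triple helix is built from repeats of glycine and 2 further residues, and its coding sequence is spread over many short exons. Quaking proteins bind RNA through a KH-type domain, and QKI7 is an isoform that differs from the others at its C-terminus.

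Terms used for the lists are as follows. The fold of a peak is the authors' ratio of IP over input, and 1 value applies to all exon blocks that a peak joins. Blocks of any list that overlapped by 1 base or more, strand by strand, were merged into exon block regions and numbered from the 5′ end of the transcript. A joined peak listed every block between its ends: of 8168 blocks of 1 list that lay inside a peak of another list, 8168 were listed there with the same ends. A block inside a long peak is therefore no separate evidence of reads on that exon. No scale shared between lists is stated, so folds were compared as percentiles within a list, where 0 is the strongest. As each library pools many cells, a change in how many cells hold an RNA and a change per cell cannot be told apart.

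The sgMETTL1 lists held 10095 and 9388 peaks and the sgNS lists 11562 and 11038. The median gene was covered over 451 and 452 exon bases with sgMETTL1 and over 567 and 569 with sgNS. METTL1 and WDR4 had no peak in any list, so the lists do not check the knockout. Among hepatocyte and HepG2 markers, SERPINA1, FGB, HNF4A and APOB were in all 4 lists, ALB in 1 sgNS list, and AFP, APOA1, TTR, TF and GPC3 in none. Of 8 fibroblast markers PDGFRB was in 1 list, and of 5 blood and endothelial markers none had a peak. A missing peak does not show that the RNA is absent.

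AGRN, of the 3 genes, had the ratio of covered bases nearest to 1 between the guides. Nearly all of the blocks seen in any list were covered in every list, with 5783 and 6617 exon bases in the sgMETTL1 lists and 6707 and 6915 in the sgNS lists. By covered bases it stood 11th and 7th of all genes with sgMETTL1, and 10th and 8th with sgNS. Both sgMETTL1 values lay below both sgNS values, an order shared by 58.8% of the 4150 genes present in all 4 lists. Mean coverage was 6200 ± 590 bases with sgMETTL1 and 6811 ± 147 with sgNS (SD, n = 2 each), a ratio of 0.91, whereas the median ratio over those genes was 0.801.

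The gene lies on the plus strand of chromosome 1 (GRCh38.p14, 1020120 to 1056116 in RefSeq), and its blocks fell into 37 regions. Of these 34 were in all 4 lists, against 40.2% of the 17690 regions of all genes. The strongest AGRN peak always ran to the last block, which ended at 1056119 and spanned 1296 bases. In the sgMETTL1 lists this peak joined 25 blocks at 11.3-fold and 33 blocks at 9.19-fold. The sgNS lists had it at 10.2-fold over 30 blocks and at 14.9-fold over 37 blocks. These 30 and 37 blocks were the most of any peak in the sgNS lists. The guides overlapped in the fold, and the percentile of the strongest fold was 33.9 and 38.8 with sgMETTL1 and 40.5 and 27.1 with sgNS.

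Towards the 5′ end the AGRN lists parted. Only sgNS lists covered region 1 (1022309 to 1022462), an order found for 7.94% of all regions, and regions 2 and 3 lacked cover only in replicate 1 of sgMETTL1. Without replicate 2 of sgMETTL1, a looser rule, 3 AGRN regions were covered by sgNS lists only. Where the 5′ blocks formed peaks of their own, their folds were small: 1.31 to 1.61 in 5 peaks of replicate 1 of sgMETTL1, 2.16 in replicate 2 of sgMETTL1, and 2.31 and 1.7 in replicate 1 of sgNS. In replicate 2 of sgNS the same blocks were part of the peak listed at 14.9-fold. Of the 34 shared regions, 6 (region 4 and regions 8 to 12) were weaker by percentile in both sgMETTL1 lists, and 0 were stronger, against 42.9% and 9.35% of all regions in 4 lists. A region takes the fold of whichever peak holds it.

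AGRN had by far the best-supported peaks of the 3 genes. Its best peak had a -log10 p of 434 and 454 with sgMETTL1 and 352 and 503 with sgNS. Among genes of a list the best p stood at percentiles 3.90 and 3.90 with sgMETTL1 and 9.39 and 6.44 with sgNS, so by p it ranked higher in both sgMETTL1 lists, an order found for 18.8% of genes. The 3′ peak also held short blocks of 24 and 33 bases (regions 33 and 34). Agrin is known to carry small alternatively spliced exons near its C-terminus that are used in neurons. Whether these blocks are those exons was not analysed here.

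COL27A1 was covered over far more of its transcript with sgMETTL1. The sgMETTL1 lists covered 4373 and 4583 exon bases in 61 and 62 of its 62 regions. The sgNS lists covered 1559 and 2158 bases in 29 and 37 regions. The groups did not overlap, and only 3.71% of genes in all 4 lists had more covered bases in both sgMETTL1 lists than in both sgNS lists. The means were 4478 ± 148 bases with sgMETTL1 and 1859 ± 424 with sgNS (SD, n = 2 each), a ratio of 2.41 that ranked 26th of the 4150 genes.

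The gene lies on the plus strand of chromosome 9 (GRCh38.p14, 114154098 to 114312511). With sgMETTL1 a single peak joined 56 blocks in replicate 1 (114169454 to 114306651) and 55 blocks in replicate 2 (114169454 to 114304626). These were the most blocks of any peak in the sgMETTL1 lists. Their folds were 7.25 and 14.8, with a -log10 p of 43.4 and 49.9. With sgNS the same stretch was broken into shorter peaks. Replicate 1 of sgNS had 3, 6, 9 and 11 blocks at 1.35-fold, 2.31-fold, 2.34-fold and 4.22-fold. Replicate 2 of sgNS had 3, 14 and 19 blocks at 1.35-fold, 1.76-fold and 3.23-fold, and a last peak of 1 block at 1.44-fold. In all, 0.699% of genes had a peak of more blocks in both sgMETTL1 lists than in both sgNS lists, and 4.84% had the opposite order.

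**Figure D1:**
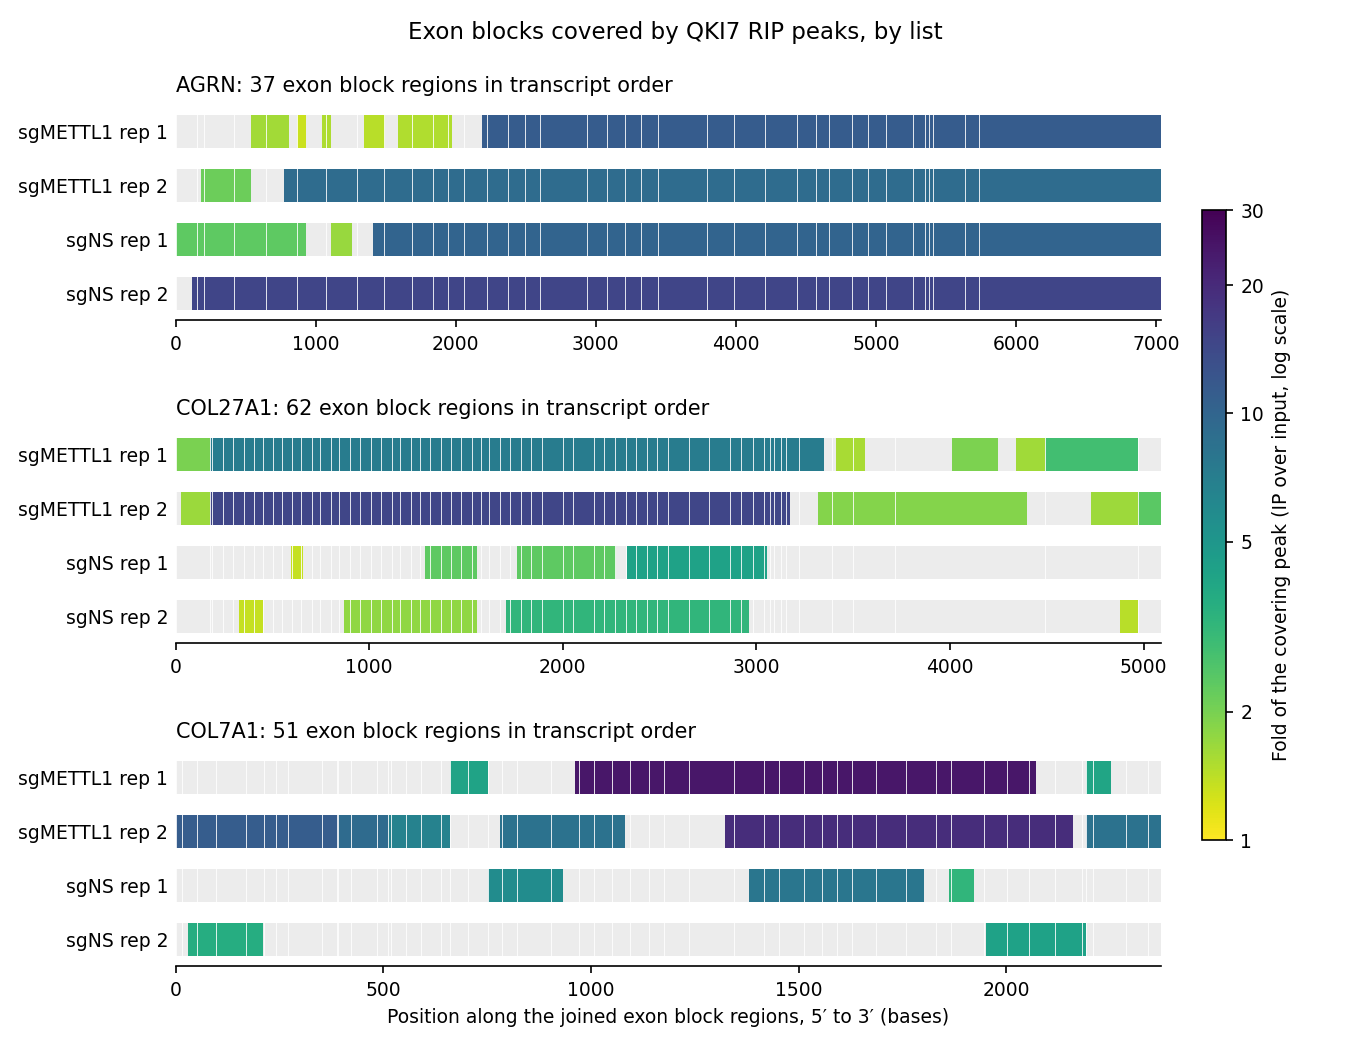
Exon blocks of AGRN, COL27A1 and COL7A1 covered by a peak in each list, drawn to scale along the joined block regions from 5′ to 3′ (bases), with white lines between regions, grey where the list has no peak, and colour for the fold of the covering peak on a log scale. COL27A1 is covered in 61 and 62 of 62 regions in the sgMETTL1 lists and in 29 and 37 in the sgNS lists, while AGRN is nearly filled in all 4.

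Of the COL27A1 regions 24 were held by every list, 24 to 29 (114250615 to 114264968) and 33 to 50 (114267504 to 114300687). Leaving out replicate 1 of sgNS raised this count to 37, as a rule on fewer lists is easier to meet. Over these 24 regions the covering peak stood at 7.25-fold and 14.8-fold with sgMETTL1, against 2.31 to 4.22-fold and 1.76 to 3.23-fold with sgNS. By percentile all 24 were stronger in both sgMETTL1 lists, an order seen at 9.35% of the regions that all 4 lists covered. The 24 regions share 1 peak in each sgMETTL1 list, so they are not separate observations.

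A further 19 regions were shared by the sgMETTL1 lists and absent with sgNS, against 1.63% of all regions. No gene had more such regions: COL27A1 held 19 of the 288 over all genes, which were spread over 197 genes. Except for regions 1 and 57 to 60, these also lie in the 1 long peak of each sgMETTL1 list. They are thus not separate gains, and the count grows with the number of short exons that a peak joins. They lay at the 5′ side (regions 1 to 4, 8 and 9, and 13 to 15), between the stretches held by every list (regions 30 and 31) and at the 3′ end (regions 53 to 60, 114301445 to 114311319). The 19 became 32 without replicate 2 of sgNS, where the looser rule builds in a rise. The count was also 32 when equal numbers of peaks, best by fold, were taken from each list. Another 18 regions, interspersed among these, were in both sgMETTL1 lists and 1 sgNS list, a count with no share of all regions beside it. All but region 61 lie in the 1 long peak of each sgMETTL1 list. No COL27A1 region was covered with sgNS alone. Every base that an sgNS list covered was also covered in each sgMETTL1 list, 1559 of 1559 and 2158 of 2158.

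The ends of COL27A1 were weaker than its middle with sgMETTL1. Region 1, a block of 180 bases upstream of the long peak, stood at 1.97-fold and 1.66-fold. Peaks downstream of it had folds of 1.56, 1.95, 1.62 and 2.81 in replicate 1 of sgMETTL1 and 1.88, 1.64 and 2.4 in replicate 2. These peaks covered the longest blocks of the gene, regions 60 and 61 of 771 and 480 bases. With sgNS they held only 91 bases of region 61, in replicate 2. Whether these blocks are coding or untranslated was not analysed here.

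By strength COL27A1 also ranked higher with sgMETTL1. The strongest fold stood at percentiles 48.0 and 26.1 with sgMETTL1 and 72.1 and 79.6 with sgNS. It was stronger in both sgMETTL1 lists than in both sgNS lists, an order found for 13.1% of genes, while 32.5% had the opposite order. The mean fold weighted by covered bases was 5.86 and 10.3 with sgMETTL1 and 3.16 and 2.58 with sgNS. Best p stood at percentiles 27.8 and 26.4 with sgMETTL1 and 57.1 and 57.4 with sgNS, an order found for 18.8% of genes. More covered bases together with a stronger percentile of the fold in both sgMETTL1 lists were found for 78 genes (1.88%), which include COL27A1 and COL7A1.

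COL7A1 showed the same direction on much thinner evidence. The sgMETTL1 lists covered 1262 and 1982 exon bases and the sgNS lists 663 and 420, so that the groups did not overlap. That order was found for 3.71% of genes in all 4 lists. The means were 1622 ± 509 bases with sgMETTL1 and 541.5 ± 172 with sgNS (SD, n = 2 each), a ratio of 3.00 that ranked 10th of 4150 genes. The number of covered blocks was 26 and 45 with sgMETTL1 and 15 and 9 with sgNS.

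The gene lies on the minus strand of chromosome 3 (GRCh38.p14, 48564073 to 48595329), and its peaks in the 4 lists reached no further towards the 5′ end than position 48581275. Its strongest peak joined 22 blocks at 24.4-fold in replicate 1 of sgMETTL1 (48567620 to 48572680) and 16 blocks at 19.4-fold in replicate 2 (48567148 to 48570882). With sgNS the strongest peaks joined 9 blocks at 7.87-fold in replicate 1 (48568812 to 48570673) and 5 blocks at 4.23-fold in replicate 2 (48567014 to 48567887). The percentile of the strongest fold was 15.3 and 19.5 with sgMETTL1 and 48.4 and 70.6 with sgNS, an order found for 13.1% of genes. The strongest COL7A1 folds were the highest of the 3 genes in the sgMETTL1 lists, although their p-values were the weakest.

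The -log10 p of the best COL7A1 peak was 7.79 and 9.22 with sgMETTL1 and 5.17 and 4.59 with sgNS. Among genes of a list it stood at percentiles 64.2 and 60.5 with sgMETTL1 and 82.8 and 86.3 with sgNS, an order found for 18.8% of genes. The number of reads behind a peak was not used here, so the depth of these values is unknown.

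Replicates of COL7A1 agreed poorly. The 2 sgNS lists shared 0 bases, whereas the median gene of all 4 lists shared 78.6% of the bases covered by either sgNS list. The sgMETTL1 lists shared 932 bases, 40.3% of those covered by either, with a median of 70.0% over the genes. For COL27A1 these shares were 76.0% with sgMETTL1 and 61.0% with sgNS, and for AGRN 80.9% and 93.6%. Of the 51 COL7A1 regions 0 were in all 4 lists, and 22 were in only 1 list, 16 of them in replicate 2 of sgMETTL1. The 0 became 3 without replicate 1 of sgNS and 12 without replicate 2 of sgNS, under a rule that fewer lists make easier to meet.

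The 2 sgMETTL1 lists nevertheless shared 6 COL7A1 regions that no sgNS list covered, namely 25 to 27, 31, 48 and 49, against 1.63% of all regions. Regions 25 to 27 share 1 peak in each sgMETTL1 list, as do 48 and 49, so they are not separate observations. In replicate 1 of sgMETTL1 region 31 lies in the same peak as 25 to 27. The count was 22 without replicate 1 of sgMETTL1, 12 without replicate 2 of sgMETTL1, 18 without replicate 1 of sgNS and 9 without replicate 2 of sgNS. A rule on fewer lists is easier to meet, so a rise is built into these counts. The share of all regions belongs to the rule on 4 lists. COL7A1 ranked 4th of all genes by the number of such regions, behind COL27A1, SPTAN1 with 10 and another collagen gene, COL16A1, with 7. NPEPL1 had 5, and MYO18A and SPTBN1 had 4 each. COL18A1 and COL9A3 had 3 each, as did several genes that are not collagens. The trait is thus not particular to the chosen genes, nor to collagen genes. A further 15 COL7A1 regions were in both sgMETTL1 lists and 1 sgNS list, a count with no share of all regions beside it. They lie in 1 peak of replicate 1 of sgMETTL1 and in the peaks at 8.33-fold and 19.4-fold of replicate 2. They are thus not separate observations. At each of these 15 the covering peak stood at 24.4-fold in replicate 1 of sgMETTL1 and at 8.33 to 19.4-fold in replicate 2, against 3.24 to 7.87-fold in the sgNS list that held it. The bases of the sgNS lists were largely contained in replicate 2 of sgMETTL1, with 633 of 663 and 390 of 420. Replicate 1 of sgMETTL1 held 482 and 121 of them.

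One COL7A1 peak reached a microRNA hairpin. MIR711 (chr3:48578902-48578977, minus strand, GRCh38.p14) lies within the gene, and region 11 covered 32 of its 76 bases (48578919 to 48578950), only in replicate 2 of sgMETTL1. The peak there joined 3 blocks at 9.25-fold with a -log10 p of 3.69. The hairpin is printed because it is the reference sequence at hand that a peak block of these genes overlaps. It is taken from RefSeq, with the covered bases in capitals:
MIR711: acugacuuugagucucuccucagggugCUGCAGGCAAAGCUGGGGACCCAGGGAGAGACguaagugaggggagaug
The covered block ends where the hairpin continues with guaag, the letters of a 5′ splice site, so the mature microRNA runs over the end of the exon block. Of the 22 bases of the mature hsa-miR-711 (GGGACCCAGGGAGAGACguaag), 17 lay in the block. MIR455, the microRNA gene within COL27A1 (chr9:114209434-114209529), lay between blocks, 146 bases before region 10, and no list covered it.

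**Figure D2:**
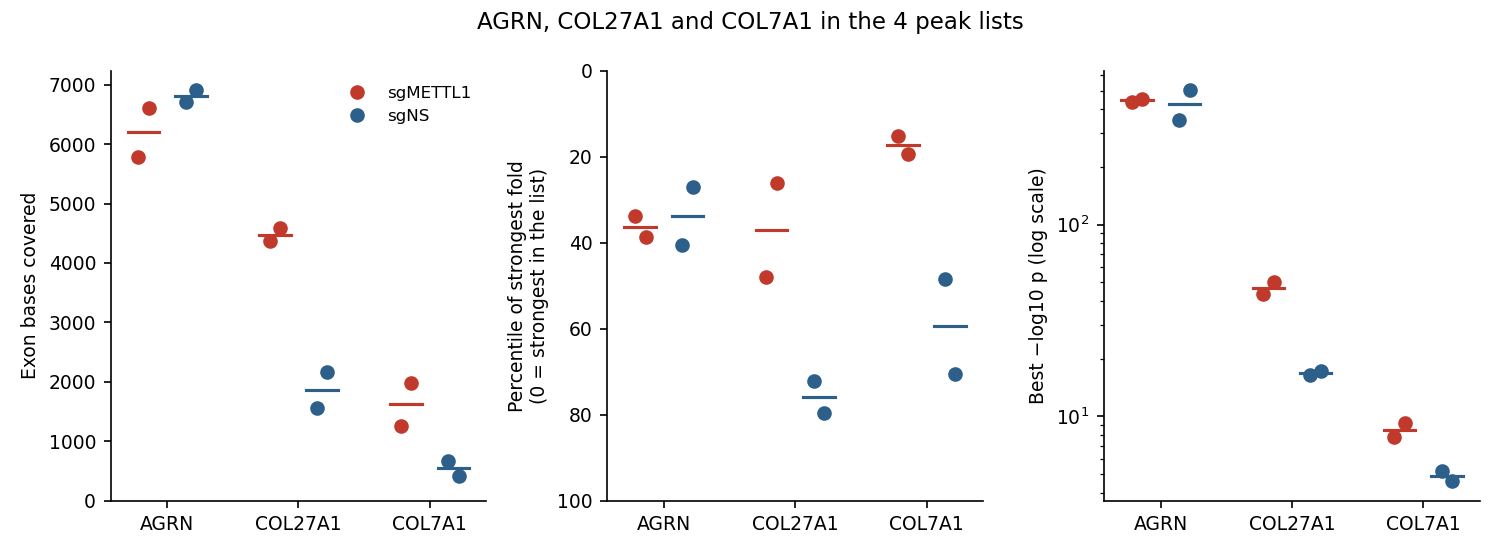
Exon bases covered, percentile of the strongest fold (0 is the strongest gene of the list) and best -log10 p on a log scale, for AGRN, COL27A1 and COL7A1. Points are lists and bars the mean of 2 lists per guide; for COL27A1 and COL7A1 the sgMETTL1 points lie apart from the sgNS points in all 3 panels, and for AGRN the guides overlap in fold and in p.

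The collagen repeat could be read from the block lengths, a property of the genes that is the same under either guide. Among blocks with a neighbour on both sides in their peak, 52 of 56 in COL27A1 (92.9%) and 31 of 39 in COL7A1 (79.5%) had a length that is a multiple of 9 bases, the length that codes for 1 glycine repeat unit of 3 residues. The share was 9 of 35 in AGRN (25.7%) and 15.5% in the 1425 such blocks of all other genes. In COL27A1 33 of these blocks had 54 bases and 9 had 45, and in COL7A1 11 had 36. Median lengths were 54, 48 and 144 bases in COL27A1, COL7A1 and AGRN, against 107 in the other genes.

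No linked region of any gene passed a test between the guides. Peaks of a gene that shared exon bases were linked, and the ranks of the strongest fold in the 6003 linked regions of all 4 lists were compared with limma (Benjamini-Hochberg FDR of 5%). It called 0 of 6003 (0%), with a smallest adjusted p of 0.333 and 628 regions below 0.05 before adjustment, of which 325 were higher with sgMETTL1 and 303 lower. With 2 lists a guide, the differences of COL27A1 and COL7A1 thus stand as descriptions of these 4 lists.

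**Figure D3:**
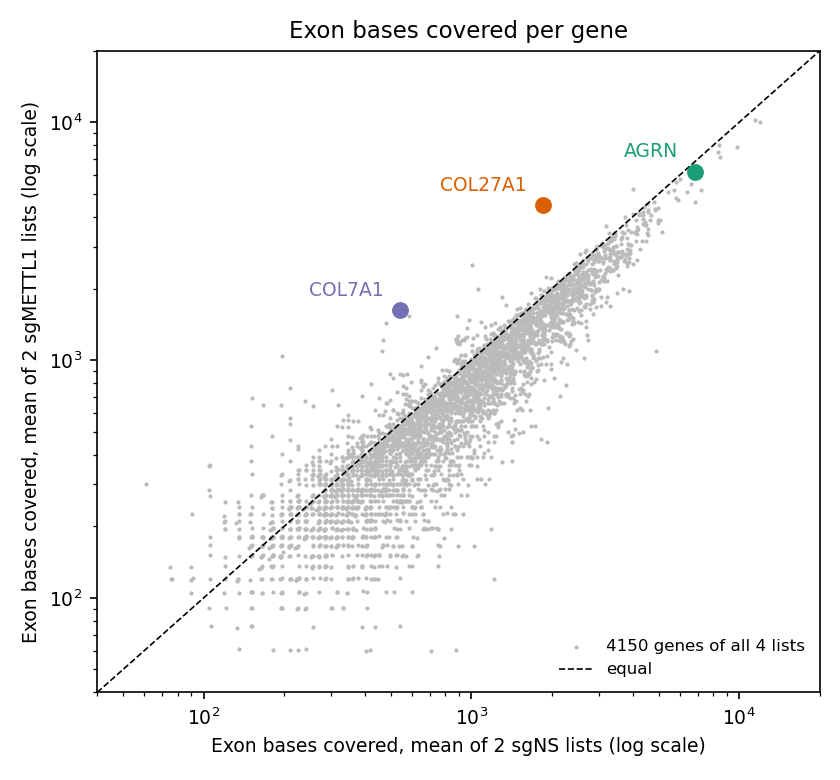
Exon bases covered per gene, mean of 2 sgMETTL1 lists (vertical, log scale) against mean of 2 sgNS lists (horizontal, log scale), for the 4150 genes of all 4 lists. Most points lie below the dashed line of equal values (median ratio 0.801); COL27A1 and COL7A1 lie above it at ratios of 2.41 and 3.00, and AGRN lies close to it at 0.91.

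Genes whose values resembled each of the 3 were found by the distance over 8 values, the normal scores of the strongest fold and of covered bases in the 4 lists. For AGRN the nearest were NFAT5, TMEM33 and NUFIP2, at distances of 0.888, 0.948 and 1.14 where the median gene was at 5.70. For COL7A1 they were VPS13C, ZNF493 and EXOC8 (1.30, 1.36 and 1.48, median 2.98). For COL27A1, MED13, MDM2 and SOS1 stood at 1.70, 1.70 and 1.78 (median 4.41). None of these 9 genes had a peak of more than 3 blocks, so they did not share the joining of blocks. Those nearest to COL27A1 also lacked a difference in covered bases of its size. MED13 had 2464 and 2015 bases with sgMETTL1 and 2672 and 2373 with sgNS, and SOS1 2665 and 2727 against 2936 and 2906. MDM2 had 2936 and 2994 against 2935 and 2904, so both its sgMETTL1 values were higher, by a narrow margin. Near COL7A1, VPS13C and ZNF493 had more covered bases in both sgMETTL1 lists, and EXOC8 had fewer.

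Of 44 collagen chain genes, 7 were in both sgMETTL1 lists and 6 in both sgNS lists. Here and for the gene sets below, such counts have no share of all genes beside them and are a description only. With sgMETTL1, COL27A1 and COL7A1 had the most covered bases of them. COL9A3, a chain of cartilage collagen IX, was covered over 480 and 390 bases with sgMETTL1 and 240 and 211 with sgNS, at folds of 1.70 and 1.52 with sgMETTL1 and 1.52 and 1.46 with sgNS, near the bottom of each list. COL16A1 had 542 and 751 bases with sgMETTL1 and 390 in 1 sgNS list. Its fold was weaker with sgMETTL1, at 8.38 and 6.66 (percentiles 42.8 and 48.9) against 19 in that sgNS list (21.1). COL6A1 was in both sgNS lists over 61 and 121 bases, and in 1 sgMETTL1 list over 211. COL9A2 was in 1 list of each guide, over 448 bases with sgMETTL1 and 90 with sgNS. COL18A1, whose C-terminal fragment is endostatin, had 121 and 121 bases in the sgMETTL1 lists at 1.26-fold and 1.22-fold and was in no sgNS list, as was the case for 1.52% of all genes.

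The basement membrane collagen genes COL4A5 and COL4A6 had peaks of 1 block, with ranges of covered bases that overlapped between the guides. COL4A5 was covered over 811 and 1020 bases with sgMETTL1 and 991 and 961 with sgNS. COL4A6 was covered over 211 and 181 bases with sgMETTL1 and 151 and 242 with sgNS. Of the 5 collagen genes in all 4 lists, 3 had more covered bases in both sgMETTL1 lists and 0 had fewer, against 3.71% and 58.8% of genes. Those 3 are COL27A1, COL7A1 and COL9A3, and the first 2 were chosen for study. The remaining 35 collagen genes, COL1A1, COL1A2 and COL3A1 among them, were in no list.

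**Figure D4:**
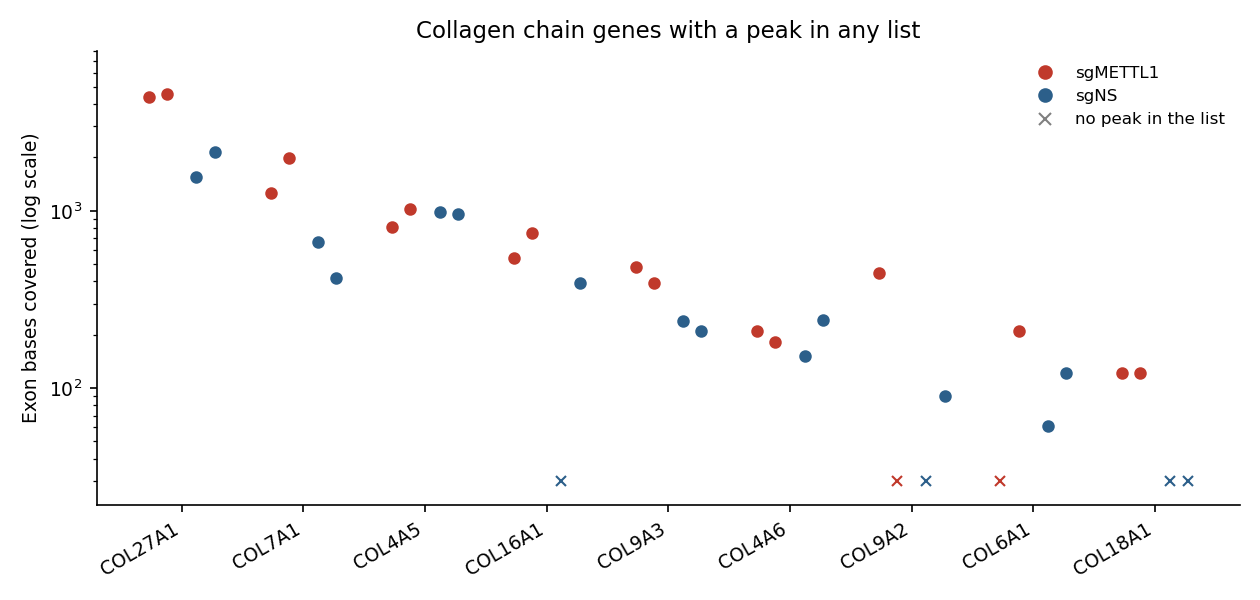
Exon bases covered (log scale) of the 9 collagen chain genes with a peak in any list, 1 point per list, with crosses for a list with no peak. COL27A1, COL7A1 and COL9A3 have both sgMETTL1 points above both sgNS points, and COL4A5 and COL4A6 overlap between the guides.

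Of 26 basement membrane genes 11 were in both sgMETTL1 lists and 10 in both sgNS lists. SPARC, a collagen-binding matrix protein, was listed at 54.9-fold and 14.3-fold with sgMETTL1 and 21.4-fold and 80.3-fold with sgNS. FN1, which encodes fibronectin, was listed at 18.8-fold and 28.8-fold with sgMETTL1 and 15.8-fold and 18.9-fold with sgNS, over 361 bases in every list. The laminin chain genes LAMA3 (14.1-fold and 16.7-fold with sgMETTL1, 17.9-fold and 15.4-fold with sgNS) and LAMA2 (15.2-fold and 30.5-fold with sgMETTL1, 10.0-fold and 10.6-fold with sgNS) had 1 block each. Of the 10 basement membrane genes in all 4 lists, covered bases were higher with sgMETTL1 for 1, COL7A1, which was chosen for study, and lower for 2 (all genes: 3.71% and 58.8%). The 2 are SPARC and AGRN, and AGRN was also chosen for study.

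Of 12 genes for receptors and partners of agrin, 4 were in both sgMETTL1 lists and 5 in both sgNS lists. Among the 4 in all 4 lists, covered bases were higher with sgMETTL1 for 0 and lower for 2 (all genes: 3.71% and 58.8%). ITGAV, an integrin chain, stood at 5.92-fold and 4.78-fold with sgMETTL1 and 5.94-fold and 5.19-fold with sgNS. ITGB1 stood at 4.95-fold and 9.72-fold with sgMETTL1 and 3.81-fold and 4.51-fold with sgNS, DAG1, the dystroglycan gene, at 5.05-fold and 3.97-fold with sgMETTL1 and 4.44-fold and 6.11-fold with sgNS, and PTPRS at 2.42-fold and 2.70-fold with sgMETTL1 and 6.43-fold and 4.65-fold with sgNS. The agrin receptor gene LRP4 was missing from 1 sgMETTL1 list, and MUSK was in no list.

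Of 12 genes of the type VII collagen anchoring complex, 7 were in both sgMETTL1 lists and 7 in both sgNS lists. PLEC, the cytoskeletal linker plectin, was covered over 9958 and 10015 bases with sgMETTL1 and 11515 and 12411 with sgNS, at 32.8-fold and 34.5-fold with sgMETTL1 and 55.6-fold and 51.6-fold with sgNS. DST, which encodes dystonin, was listed at 49.2-fold and 29.3-fold with sgMETTL1 and 34.9-fold and 34.4-fold with sgNS. LAMB3 was listed at 10.7-fold and 20.5-fold with sgMETTL1 and 9.84-fold and 13.3-fold with sgNS. Of the 7, covered bases were higher with sgMETTL1 for COL7A1 alone, which was chosen with its value known, and lower for 3 (3.71% and 58.8% of all genes).

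Genes that fold, secrete and cross-link collagen numbered 34, of which 8 were in both sgMETTL1 lists and 8 in both sgNS lists, with 0 higher and 3 lower in covered bases of the 7 in all 4 lists (all genes: 3.71% and 58.8%). CRTAP, part of the prolyl 3-hydroxylation complex, was listed at 39.6-fold and 29.8-fold with sgMETTL1 and 30.9-fold and 132-fold with sgNS. FKBP14, a prolyl isomerase, stood at 21.3-fold and 17.2-fold with sgMETTL1 and 18.3-fold and 16.6-fold with sgNS. LOX, the lysyl oxidase gene, stood at 12.8-fold and 13.9-fold with sgMETTL1 and 12.0-fold and 16.4-fold with sgNS. MIA3, which encodes the collagen export receptor TANGO1, was in 1 sgMETTL1 list at 23.1-fold and in the sgNS lists at 6.31-fold and 4.23-fold.

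Heparan sulfate core proteins and enzymes had 10 of 37 members in both sgMETTL1 lists and 13 in both sgNS lists. Of the 9 in all 4 lists 0 were higher and 7 lower in covered bases, and AGRN, chosen for study, is 1 of the 7. Lower was also the prevailing order of all genes (58.8%, against 3.71% higher). SDC3, a syndecan, stood at 104-fold and 97.2-fold with sgMETTL1 and 34.7-fold and 42.3-fold with sgNS. SDC4 stood at 16.8-fold and 13.5-fold with sgMETTL1 and 11.9-fold and 11.6-fold with sgNS over 1336 bases in every list. NDST1, a heparan sulfate sulfotransferase, stood at 10.9-fold and 6.71-fold with sgMETTL1 and 6.61-fold and 15.2-fold with sgNS.

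Of 19 integrins and other matrix receptors, 6 were in both sgMETTL1 lists and 6 in both sgNS lists, with 0 higher and 5 lower in covered bases of 6 (all genes: 3.71% and 58.8%). ITGA6 was listed at 3.89-fold and 4.04-fold with sgMETTL1 and 5.86-fold and 5.14-fold with sgNS. Of 21 matrix proteases and inhibitors, 4 were in both sgMETTL1 lists and 4 in both sgNS lists, with 0 higher and 4 lower in covered bases of 4 (all genes: 3.71% and 58.8%). ADAM17, a membrane sheddase, was listed at 25.4-fold and 17.9-fold with sgMETTL1 and 21.8-fold and 25.4-fold with sgNS. ADAM10 was listed at 4.34-fold and 4.16-fold with sgMETTL1 and 7.2-fold and 5.02-fold with sgNS. TIMP3, an inhibitor of metalloproteases, was listed at 2.51-fold and 2.03-fold with sgMETTL1 and 2.21-fold and 2.07-fold with sgNS. By percentile of the strongest fold, 13.1% of all genes were stronger and 32.5% weaker in both sgMETTL1 lists. These counts were 2 and 0 of 5 collagen genes, where the 2 are COL27A1 and COL7A1, chosen with their values known. The count is thus no result about collagen genes. They were 3 and 0 of 10 basement membrane genes, the 3 being FN1, LAMA2 and the chosen COL7A1. Agrin partners had 1 and 1 of 4, and collagen-processing genes 1 and 1 of 7. Anchoring genes had 1 and 2 of 7, and the 1 stronger gene is again COL7A1. Heparan sulfate genes had 2 and 2 of 9, receptors 1 and 1 of 6, and proteases and inhibitors 1 and 1 of 4.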

How the data were processed

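RNA was immunoprecipitated with a Flag antibody from cross-linked, sonicated HepG2 lysates, depleted of ribosomal RNA and sequenced from stranded libraries with matched input, per the labels' protocols. STAR and GRCh38 are named in the submitters' processing notes, without a version of STAR. Not given in the sources used here are the peak caller, its threshold and its input scaling. Peaks were called separately for each IP sample against its input, per the labels' descriptions, and replicates were not pooled. The fold of each peak is a ratio of IP over input as deposited by the authors. The p-value of each peak and its base-10 logarithm, handled as a score because it exceeds the usual range of a log value, are also as deposited. The depth is unknown, since no read counts were used.

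Computed here were exon block regions (at least 1 shared base), covered bases, percentiles within a list and linked regions (Python 3.11.15, pandas 2.3.3, numpy 2.4.6, scipy 1.17.1, matplotlib 3.10.9), and limma 3.58.1 in R 4.3.3 on normal scores of ranks, two-sided. Merging and limma were checked on simulated data. Coordinates are 1-based, and gene positions are those of RefSeq on GRCh38.p14. The 3 genes, the 8 matrix gene lists and the tests were chosen with earlier results of these data known. Named genes are the 3, the 3 nearest to each, and up to 4 best-ranked members of each list, apart from some genes that are not reported here; COL4A6, COL9A3, COL18A1, LRP4 and others outside this rule were named after their values were seen. MIA2 was matched by an older symbol, CTAGE5. Alternatives were 50% reciprocal overlap, equal numbers of peaks, a higher fold minimum, other ranks, folds on the log2 scale, a block for the replicate number, and leaving out each list. Genome sequence and transcript models were not used here, so motifs and transcript parts were not analysed here.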

Additional observations from a re-analysis of the deposited data

How the results depend on the processing

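Limma called 0 linked regions in every setting run, with the replicate number as a block (0 called, 595 at an unadjusted p under 0.05), on log2 folds (792), with the mean fold (644) and without each list (0 called, 502 to 621). The labels give replicates only a number, and deviations of same-numbered lists correlated at -0.000892 across regions, so the block is no evidence of pairing. Over the 3 genes, 58 regions were in all 4 lists (58 to 75 without 1 list), 25 were shared by the sgMETTL1 lists and absent with sgNS, and 1 the reverse. With equal numbers of peaks by fold the 25 became 38, and without 1 list 32 to 42. The 1 became 4 with a fold minimum of 2 times the lowest of the list, and 1 to 3 without 1 list. Region counts without 1 list follow a looser rule, so a rise in them is built in. For COL27A1 the ratio of covered bases of 2.41 was 3.14 with equal numbers by fold and 2.08 to 2.87 without 1 list, and for COL7A1 it was 2.33 to 3.86 without 1 list. For AGRN the ratio of 0.91 was 0.825 with the fold minimum and 0.849 to 0.972 without 1 list. The difference in normal score of the strongest fold, sgMETTL1 minus sgNS, was 1.05 for COL27A1 (0.756 to 1.34 without 1 list) and 1.19 for COL7A1 (0.902 to 1.48); on log2 folds it was 1.49 and 1.92, and for COL7A1 0.863 with the mean fold and 0.705 by p. For AGRN it was -0.07, with -0.68 for the mean fold, -0.27 on log2 folds, 0.344 by p and -0.26 to 0.109 without 1 list, so its direction is not settled; without replicate 2 of sgNS it was 0.109. Settings on covered bases were chosen after seeing the data. The cause of these changes was not tested. Depth is unknown; COL7A1 has the weakest p-values of the 3 genes and 0 bases shared by its sgNS lists.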
